A study of Mus musculus with 72 samples.

Results

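The aminoacyl-tRNA synthetases of mouse liver and suprachiasmatic nucleus (SCN) are described here from gene counts in 72 RNA-seq libraries. The SCN is a small hypothalamic nucleus and the seat of the central clock. Members were the genes whose symbol in the count tables has the form of a synthetase, such as Sars, Mars2, Eprs, Farsa or Tarsl2. This gave 38 genes of 22823 in the liver table, and the same 38 of 15759 in the SCN table. All 38 passed the filter on low counts in both tissues, though in SCN it removed no gene. The group holds 21 cytosolic synthetases and 17 mitochondrial ones, whose symbols end in 2. Tarsl2 was counted with the cytosolic enzymes, since it is a further cytosolic threonyl-tRNA synthetase. Gars and Kars, for glycine and lysine, were counted as cytosolic, but each gene makes both the cytosolic and the mitochondrial enzyme.

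Mice were of the C57BL/6 strain, with no engineered allele named in the labels, and were 8 to 12 weeks old. They ate either a diet deficient in methionine and choline (MCD) or a control diet with the same energy content for 11 days, with free access to food. Of these, 10 days were spent in a light-dark cycle and the last in constant darkness, when tissue was taken at circadian times CT0, 4, 8, 12, 16 and 20. There were 24 groups (2 tissues, 2 diets, 6 times) of 3 libraries, and the sample labels give 2 of them as male and 1 as female, while the protocol text speaks of males alone. Liver RNA came from the left lobe, and SCN tissue was cut by laser from stained brain sections. Nothing in the labels ties a liver library to the SCN library of the same mouse, and in bulk tissue fewer cells of a type and less RNA per cell cannot be told apart.

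Each synthetase joins 1 amino acid to its transfer RNA, the step that fixes the genetic code, and cytosol and mitochondria use separate sets encoded in the nucleus. The enzymes belong to class I or class II by the fold of the catalytic domain, and Eprs carries a class I and a class II enzyme in 1 protein. In the cytosol Dars, Eprs, Iars, Kars, Lars, Mars1, Qars and Rars sit in the multi-synthetase complex on the scaffold proteins Aimp1, Aimp2 and Eef1e1. When an amino acid runs short, uncharged tRNA activates the kinase GCN2, and the transcription factor ATF4 that is then translated is known to induce many cytosolic synthetase genes through a C/EBP-ATF response element.

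Promoter windows of RefSeq (GRCm38.p6, 250 bases before to 50 bases after the start) were found for 28 of the 38 members. TGATGNAA, the core of the C/EBP-ATF response element, was searched on both strands. It stood in the windows of 5 members, and in 3.97% of all 32851 windows. All of these matches are printed because the 5 genes include members that rose and one that fell on MCD. Capitals mark the match, each line is printed on the strand that reads as the motif, and the number in its name is the match's first base along the gene, relative to the gene's start.
Gars -30, chr6:55037963-55037986, minus strand: ccggtgcaTGATGAAAtagcgcag
Aars -112, chr8:111033722-111033745, minus strand: ggctcggcTGATGCAAtgctcaag
Aars 10, chr8:111033843-111033866, minus strand: gagcgctcTGATGAAAagtgaccc
Iars 8, chr13:49682129-49682152, minus strand: tctggaggTGATGCAAtactgaca
Tars -15, chr15:11399658-11399681, plus strand: taaccagcTGATGCAAcgggactc
Yars 4, chr4:129189898-129189921, plus strand: agctcagcTGATGCAAcccgacgg

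CACGTG, the E-box that the clock proteins CLOCK and BMAL1 and also MYC bind, stood in the windows of 5 members and in 7.15% of all windows. The matches are printed because the libraries follow the day. Tars, Aars and Iars held both motifs in their windows. The 2 motifs share no position in these windows.
Tars 20, chr15:11399626-11399647, minus strand: cctgtggcCACGTGgcgcacgc
Aars -146, chr8:111033688-111033709, plus strand: aaccctgtCACGTGacactcca
Iars -69, chr13:49682053-49682074, plus strand: aatcgccaCACGTGttgtttgt
Farsb -39, chr1:78488923-78488944, minus strand: acaggcatCACGTGagacagcc
Ears2 22, chr7:122067052-122067073, minus strand: aaggagccCACGTGtgtgtttc

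The stretch of 100 bases before Gars, on the strand of the gene, shows the match of TGATGNAA (in capitals, in reverse complement) in its setting.
Gars, chr6:55037901-55038000, plus strand: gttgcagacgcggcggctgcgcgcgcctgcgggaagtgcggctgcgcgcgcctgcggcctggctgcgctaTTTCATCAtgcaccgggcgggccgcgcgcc
A match of letters is a description and was not tested as a site of binding.

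Liver libraries held 52.6 M to 86.7 M gene counts (median 64.4 M, with M for 1000000) and SCN libraries 23.3 M to 79.8 M (median 57.0 M). Hepatocyte markers summed to 65483 to 133460 CPM (counts of a gene per 1000000 gene counts of its library) over the 36 liver libraries, and all 10 SCN neuron markers, Avp, Vip and Prok2 among them, were tested in SCN. Of the 8 hepatocyte markers, only 2 were present in the SCN table, with a summed level of 2.21 to 27.3 CPM. Liver libraries were of 2 kinds by the mitochondrial transcript mt-Nd6, which lay at 41.6 to 118.9 CPM in 21 libraries (8 control, 13 MCD) and at 414.1 to 924.6 CPM in 15 (10 control, 5 MCD). The liver library labelled control CT08 a stood apart. On a score over genes that responded to diet at other times, scaled so that -1 is a typical control and 1 a typical MCD library, it had 0.82. The other 17 controls had -1.58 to -0.39, and the MCD libraries 0.10 to 1.95. The marker sums above and all CPM values below are scaled with TMM factors, while the mt-Nd6 values are not.

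On the control diet cytosolic synthetases had higher levels than mitochondrial ones in both tissues, per kb of annotated exon. The median was 9.42 CPM per kb for the 21 cytosolic genes of liver and 3.50 for the 17 mitochondrial genes. In SCN the medians were 9.89 and 2.65 CPM per kb. The liver order was led by Tars, the main cytosolic threonyl-tRNA synthetase, at 32.3 ± 10.5 CPM per kb (SD, n = 18), followed by Nars for asparagine at 25.3 ± 4.13 and Aars for alanine at 23.4 ± 2.91, and these 3 did not differ beyond their spread. It ended with Mars2, which charges mitochondrial tRNA with methionine, at 0.496 ± 0.108 CPM per kb. Mars1, its cytosolic counterpart, lay at 15.9 ± 2.33. In SCN Lars2, for mitochondrial leucine, stood at 74.9 ± 36.6 CPM per kb, but 2 of its exon bins, numbers 40 and 41, held 25.1% and 71.3% of its counts there. Nars led the cytosolic enzymes at 36.8 ± 3.89 CPM per kb, beside Hars for histidine at 33.8 ± 3.06. The lowest of them were Eprs at 3.67 ± 0.52 and Vars for valine at 3.69 ± 0.59, alike within their spread. The order depends on the lengths, which take in every annotated exon: 18102 bases for Eprs, 11294 for Mars2 and 2447 for Hars. Not divided by length, Eprs had a mean of 66.5 CPM in SCN and Vars 20.7.

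**Figure D1:**
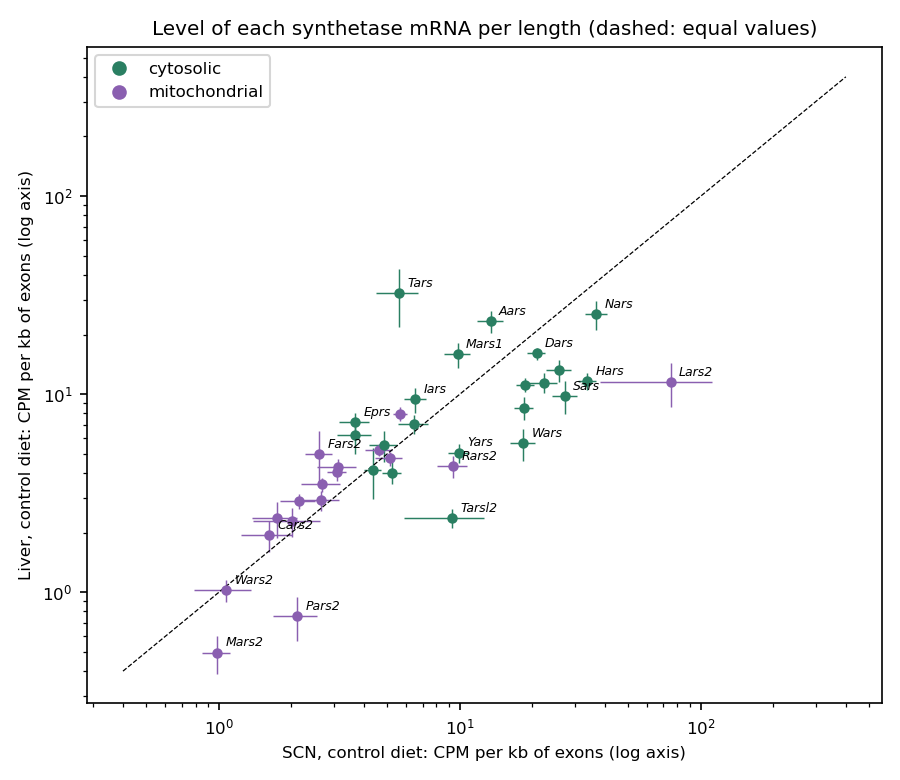
Level of each of the 38 synthetase mRNAs on the control diet, in CPM per kb of exon, in liver (vertical log axis) against SCN (horizontal log axis); points are means and bars SD over 18 libraries, green for cytosolic and purple for mitochondrial enzymes, and 19 genes are named. Tars lies far above the dashed line of equal values, while Lars2 (74.9 CPM per kb in SCN) and Tarsl2 are among the genes below it. CPM were scaled within each tissue, so the line does not mark equal levels in the fit of all 72 libraries. Dars, for example, lies below the line (16.1 in liver, 20.8 in SCN) but was higher in liver by 0.61 log2 in that fit.

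Between the tissues, 34 of the 38 members differed on the control diet in a fit of all 72 libraries, against 91.6% of all genes tested, so that this count is near the background. Of these, 26 were higher in liver and 8 lower (background 44.8% and 46.7%). Tars was 3.46 ± 0.06 log2 higher in liver (edgeR adjusted p = 1.76e-44), and Eprs, Fars2, Aars, Vars and Mars1 were higher by at least 1.68 log2. Lars2 was lower in liver by 1.61 log2, with bins 40 and 41 counted, Tarsl2 by 0.91 and Wars, for tryptophan, by 0.71. The 4 members not called were Gars, Yars, Farsb and Mars2. With library totals alone in place of TMM 22 members were higher and 15 lower (27.8% and 64.3% of genes). The median gene moved from -0.03 to -0.75 log2, Tars stayed higher and Tarsl2 lower, and Gars, Kars, Nars, Dars and Farsa, which lay at 0.02 to 0.61, turned to values of -0.69 to -0.10.

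The first comparison asked which synthetase mRNAs MCD raised or lowered in liver, averaged over the 6 times. The family did not move as a block: cytosolic members for serine, glycine, tyrosine, valine, isoleucine and glutamate-proline rose, the cytosolic enzymes for threonine and glutamine fell, and mitochondrial members went both ways. Of the 38 genes, 29 (76.3%) were called at an adjusted p under 0.05, 17 higher and 12 lower, where the background over all 20249 genes was 46.6% called, 25.3% higher and 21.2% lower. All adjusted p are from the quasi-likelihood F test of edgeR with Benjamini-Hochberg adjustment over all genes tested. The median size of the change was 0.22 log2 for members and 0.25 for all genes. For 18 members the call came with the same sign at 6 of 6 times, 8 higher and 10 lower, which holds for 28.8% of all genes (15.1% higher, 13.7% lower). Among the cytosolic enzymes 11 of 21 were higher and 4 lower, and among the mitochondrial ones 6 of 17 were higher and 8 lower. In class I 9 of 18 were higher and 5 lower, and in class II 7 of 19 each way.

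**Figure D2:**
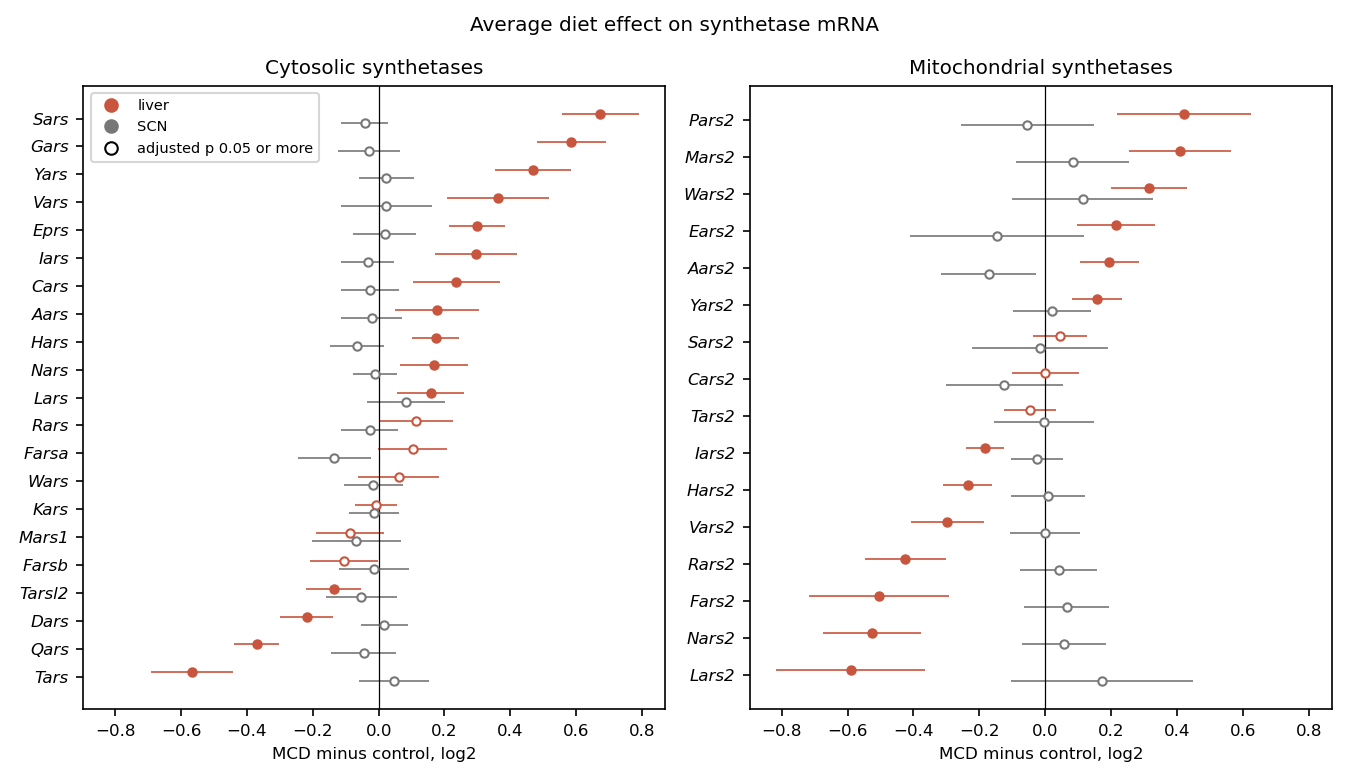
Average diet effect (MCD minus control, log2) on 37 synthetase mRNAs in liver (red) and SCN (grey), cytosolic on the left and mitochondrial on the right; bars are 95% intervals and open circles have an adjusted p of 0.05 or more. Liver values spread from -0.59 for Lars2 to 0.67 for Sars, while every SCN point is open.

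Sars, the seryl-tRNA synthetase (chr3:108424865-108445209, minus strand, GRCm38), had the largest increase. It lay at 34.3 to 72.4 CPM on control (median 48.5, n = 18) and at 49.5 to 104.7 CPM on MCD (median 77.5, n = 18). The highest control was the library that stood apart, 14 MCD libraries lay above all controls, and 17 did when that library was left out. The change was 0.67 ± 0.06 log2 (SE, adjusted p = 1.61e-09), higher at 6 of 6 times.

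Gars (chr6:55038007-55079500, plus strand), which charges glycine in cytosol and mitochondria, separated the diets best. It lay at 34.6 to 53.6 CPM on control (median 40.1) and at 50.3 to 73.5 CPM on MCD (median 61.0). The groups overlapped only through the library that stood apart, which was the highest control, and without it all 18 MCD libraries lay above all 17 controls. No other member had such a gap. Of all genes 1.68% had one, and 0.306% with every library kept. The change was 0.59 ± 0.05 log2 (adjusted p = 1.99e-09), higher at 6 of 6 times.

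Yars, for tyrosine, lay at 24.4 to 36.8 CPM on control (median 29.8) and 27.8 to 57.9 on MCD (median 39.4). The ranges overlapped, with 12 MCD libraries above all controls, and the change was 0.47 ± 0.06 log2 (adjusted p = 3.61e-07). Yars overlaps C77080 on the opposite strand, and whether counting used the strand is not given in the sources used here. Vars for valine rose by 0.36 ± 0.08 log2 (adjusted p = 0.000493) and Iars for isoleucine by 0.30 ± 0.06 (adjusted p = 0.00037), both at 6 of 6 times. Vars had 59.4 CPM in the library that stood apart, its highest control. Eprs, the joint enzyme for glutamate and proline, went from a median of 131.7 to 156.9 CPM, and its change of 0.30 ± 0.04 log2 (adjusted p = 3.04e-06) was positive at 5 of 6 times. Cars, Aars, Hars, Nars and Lars rose by 0.16 to 0.24 log2. Aars had an adjusted p of 0.0267, which became 0.055 without control CT08 a, 0.0506 without MCD CT04 2 and 0.0553 without MCD CT16 3. No other called member lost its call without any 1 library.

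**Figure D3:**
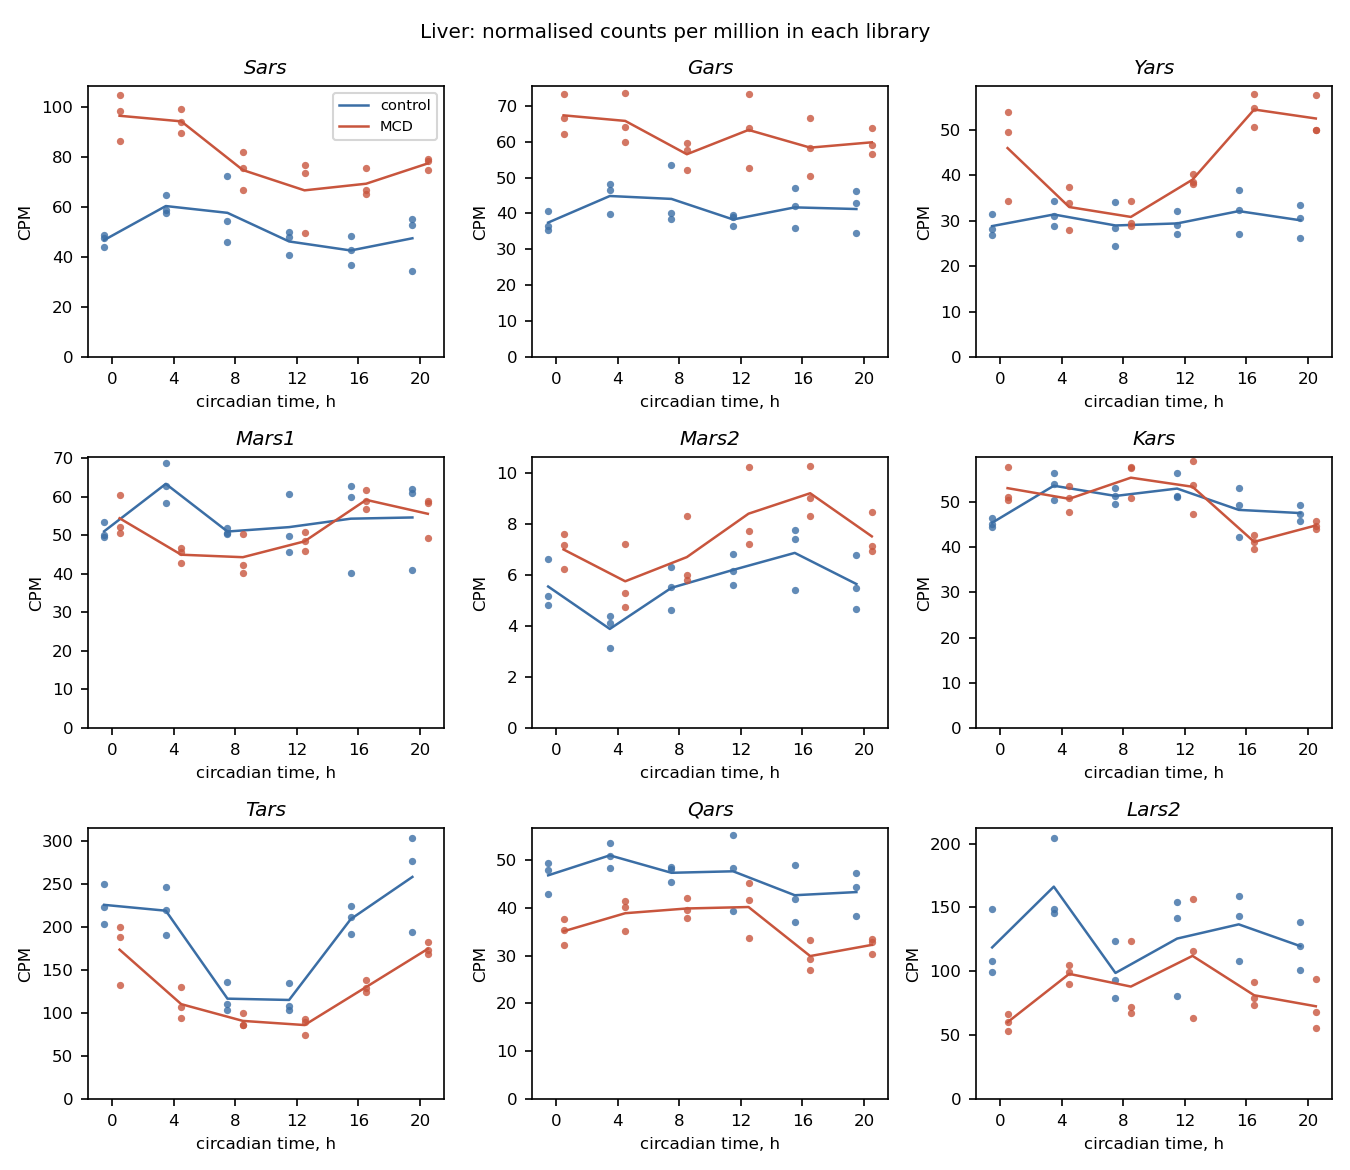
Liver CPM of 9 synthetases in each of the 36 libraries by circadian time, control in blue and MCD in red; points are libraries and lines join the means of 3. Sars and Gars are higher on MCD at each time, Tars and Qars are lower, and Mars1 and Kars overlap.

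Of the cytosolic enzymes that fell, Tars (chr15:11382301-11399665, minus strand) changed most, with a median of 199 CPM on control (103 to 303) and 126 on MCD (74.8 to 200). The ranges overlapped widely because the gene also varied by time of day. At each time the change was negative, and on average it was -0.57 ± 0.06 log2 (adjusted p = 6.67e-08). Qars, the glutaminyl-tRNA synthetase of the complex, lay at 37.0 to 55.3 CPM on control (median 48.0) and 27.0 to 45.2 on MCD (median 35.2). For Qars 10 MCD libraries lay below all controls, and the change was -0.37 ± 0.04 log2 (adjusted p = 5.08e-09). Dars, for aspartate, fell by 0.22 ± 0.04 log2 (adjusted p = 9.48e-05), but stood at 0.04 with library totals alone.

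The balance of higher and lower members rested on the scaling. The TMM factor was 0.917 ± 0.074 (SD, n = 18) for control libraries and 1.096 ± 0.079 (n = 18) for MCD, and library totals alone moved the median gene from 0.02 to 0.27 log2. With totals alone 27 members were called higher and 5 lower, against 17 and 12 with TMM, and of all genes 52.5% were then called higher and 7.61% lower. Sars, Gars, Yars, Vars, Iars and Eprs were higher and Tars, Rars2, Nars2, Fars2 and Lars2 lower in both fits. Qars at -0.11 and Vars2 at -0.04 lost their calls, and Hars2, Iars2, Dars and Tarsl2 turned positive, to 0.02 to 0.12, with only Tarsl2 of these called higher. Within the 21 low mt-Nd6 libraries 10 members were higher and 10 lower, against 12.4% and 12.9% of genes. Within the 15 high ones 8 were higher and 9 lower, against 14.9% and 13%.

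The enzymes for methionine, the amino acid missing from the diet, were examined by name. Mars1, the cytosolic methionyl-tRNA synthetase of the complex, lay at 40.3 to 68.8 CPM on control (median 52.6) and at 40.1 to 61.8 on MCD (median 50.5). The 2 ranges covered nearly the same levels. The difference was -0.09 ± 0.05 log2 (adjusted p = 0.18), not called. With library totals alone it was 0.17 and called, below the shift of the median gene. Mars1 overlaps Ddit3 on the opposite strand, which rose by 1.48 log2. Mars2, the mitochondrial enzyme, rose from a median of 5.50 CPM (3.14 to 7.75) to 7.23 (4.73 to 10.3), by 0.41 ± 0.08 log2 (adjusted p = 0.000119, higher at 6 of 6 times). Of the 18 MCD libraries 6 lay above all controls for Mars2. Kars, which like Gars serves both compartments, had medians of 50.1 and 50.6 CPM and a difference of -0.01 ± 0.03 log2 (adjusted p = 0.872), which library totals alone turned to a called 0.25, also below that shift.

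In the multi-synthetase complex 3 of 8 enzymes were higher (Eprs, Iars, Lars) and 2 lower (Qars, Dars), where 25.3% of all genes were higher and 21.2% lower, so that these counts are near the background. Mars1, Kars and Rars were not called. Among the 13 cytosolic enzymes outside the complex 8 were higher and 2 lower. Of the scaffold proteins of the complex, Aimp2 rose by 0.36 log2 and Eef1e1 by 0.35, while Aimp1 was not called (-0.01). In the list of 13 partners Aimp2 and Eef1e1 were the only higher genes, and 6 were lower. The largest decreases were those of Pstk, a kinase for selenocysteine tRNA, at -0.30, and of the editing enzymes Aarsd1 at -0.29 and Dtd2 at -0.26. The direction of the partners rested on the scaling, since with library totals alone 6 were higher and none lower. Of all 20249 genes 10633 were then higher and 1540 lower.

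Mitochondrial members split by gene. Beside Mars2, Wars2 for tryptophan rose by 0.31 ± 0.06 log2 (adjusted p = 9.47e-05) and Aars2 for alanine by 0.20 ± 0.05 (adjusted p = 0.000898), both at 6 of 6 times. Pars2 for proline rose by 0.42 ± 0.10 log2 (adjusted p = 0.0015), positive at 5 of 6 times and at only 1.42 to 3.84 CPM. Ears2 and Yars2 rose by 0.22 and 0.16. Rars2 for arginine fell from a median of 11.7 CPM (9.78 to 15.2) to 9.05 (7.11 to 12.4), with 15 MCD libraries below all controls. Its change was -0.42 ± 0.06 log2 (adjusted p = 3.83e-06). Nars2 for asparagine fell from 17.5 CPM (10.5 to 21.9) to 11.5 (8.34 to 15.1), by 0.53 ± 0.08 log2 (adjusted p = 2.89e-06). For Nars2 5 MCD libraries lay below all controls, and 13 without the library that stood apart. Vars2, Hars2 and Iars2 fell by 0.18 to 0.30 log2. Tars2, Cars2 and Sars2 were not called.

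The decreases of Lars2 and Fars2 were read against their exon bins, which are parts of exons counted apart. Lars2, for leucine (chr9:123366927-123462666, plus strand), had medians of 131 CPM on control (79.3 to 205) and 76.1 on MCD (53.5 to 157), and fell by 0.59 ± 0.12 log2 (adjusted p = 0.00014). Its bins 40 and 41 of 42 held 19.5% and 59.6% of its bin counts (medians of 16 control libraries). Summed over the bins, the change was -0.50 log2, and over the bins other than 40 and 41 it was -0.10 ± 0.05 (adjusted p = 0.0882), not called. Bins 40 and 41 together changed by -0.64 ± 0.14 log2 (adjusted p = 0.000541), so the decrease lay mostly in their counts.

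Fars2, for phenylalanine (chr13:36117412-36726280, plus strand), fell by 0.50 ± 0.11 log2 (adjusted p = 0.0004), from a median of 26.6 CPM (18.7 to 52.8) to 19.0 (14.7 to 28.6). Its bin 34 held 0.198% to 1.97% of its counts in 19 libraries of low mt-Nd6 and 20.1% to 49.8% in 13 of high mt-Nd6. Fars2 overlaps Lyrm4 and Nrn1 on the opposite strand. Without bin 34 the change was -0.30 ± 0.06 log2 (adjusted p = 0.000105), still called. Fars2 and Lars2 were the only members whose level differed between the kinds of library, by 0.52 and -0.49 log2 (high minus low), against 3.51% of all genes. Exon usage by diet was called in liver for Fars2 alone of 37 members (bin 34, -0.75 log2 relative to the gene, diffSpliceDGE of edgeR, adjusted p = 0.0331), against 3.48% of genes tested. The F test over all bins of a gene did not call it (adjusted p = 0.349) and called Lars2 alone of the members (adjusted p = 4.01e-33), against 5.72% of genes. The bin call of Fars2 was lost with a term for the kind of library (0.16 log2, adjusted p = 1) and without replicate number 3 (adjusted p = 0.973), and 2 members were called without control CT08 1, against 4.49% of genes. No bin of Gars or Kars was called. In SCN exon usage was called for no member by either gene-level test. The test that called Fars2 in liver called 0.0387% of genes in SCN, and the F test called 2 of 12916.

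At single times the members called were 13 at CT00 (10 higher, 3 lower; background 12.6%), 15 at CT04 (5 and 10; 18.2%), none at CT08 (1.3%), 7 at CT12 (5 and 2; 15.2%), 9 at CT16 (5 and 4; 12.5%) and 14 at CT20 (8 and 6; 11.3%). From CT00 on, without CT08, the background of higher genes was 6.57%, 9.46%, 8.08%, 6.52% and 5.7%, and that of lower genes 6.02%, 8.71%, 7.13%, 5.99% and 5.6%. Sars and Gars were higher at 5 times, all but CT08. Sars changed by 1.05 log2 at CT00, 0.64 at CT04, 0.52 at CT12, 0.71 at CT16 and 0.72 at CT20, and Gars by 0.85, 0.55, 0.72, 0.49 and 0.54. Qars was lower at CT00, CT04, CT16 and CT20, by 0.39 to 0.51 log2, and lost each of these calls with library totals alone (-0.23 to -0.09 log2). Yars was higher at CT00, CT16 and CT20 by 0.67 to 0.80 log2. Mars1 was called once, at CT04, where it fell by 0.49 log2 (adjusted p = 0.0097), and at the other times lay between -0.21 and 0.14. With library totals alone that value was -0.19 and not called. Mars2 was called at CT04 (0.57 log2, adjusted p = 0.0402) and lay between 0.28 and 0.43 at the others, while Kars ran from -0.23 to 0.22 and was never called. Cars, for cysteine, changed direction within the day, with -0.49 log2 at CT04 and 0.65, 0.69 and 0.57 at CT12, CT16 and CT20. The CT04 value of Cars was -0.18 and not called with library totals alone.

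The split into higher and lower rested on the scaling at single times too. Scaled by library totals alone, 18 members were higher and 0 lower at CT00 (16.9% and 2.68% of genes), and 10 and 2 at CT04 (23.4% and 3.68%). They were 18 and 0 at CT12 (29.6% and 2.41%), 15 and 1 at CT16 (18.4% and 2.14%) and 14 and 0 at CT20 (15.2% and 2.34%). DESeq2 called 12 members at CT12 and 15 at CT16, against 19.7% and 17.1% of genes. At CT08 10 members had an unadjusted p under 0.05 by edgeR, against 12.6% of genes. Without control CT08 a 4 members were called there, against 6.08% of genes, higher for Sars and Gars and lower for Nars2 and Fars2. Single libraries moved the other counts too. The CT00 count was 7 without control CT00 1 (6.13% of all genes) and 7 without MCD CT00 1 (6.19%). At CT04 it was 6, 7 and 9 without control CT04 1, 2 and 3 (10.5%, 10.3% and 15.4% of genes) and 8 without MCD CT04 1 (9.92%). At CT12 it was 2, 4 and 3 without control CT12 1, 2 and 3 (6.74%, 9.25% and 10.7%) and 3 without MCD CT12 2 (6.28%). At CT20 it was 8 and 7 without control CT20 1 and 2 (6.66% and 6.16%) and 9, 8 and 9 without MCD CT20 1, 2 and 3 (6.4%, 6.95% and 7.82%).

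Other genes of the pathway were read from lists. Of 26 genes of the GCN2-ATF4 pathway tested, 17 were higher in liver on MCD and none lower, against 25.3% and 21.2% of all genes, with a median of 0.35 log2 against 0.02. By totals alone 25 were higher and none lower, against 52.5% and 7.61% of genes. The largest increases were those of the cystine transporter Slc7a11 at 4.83 log2 (0.179 ± 0.623 CPM on control and 1.66 ± 2.42 on MCD, SD, n = 18 each, so near 0 on control), of Trib3, an ATF4 target, at 2.75, and of asparagine synthetase, Asns, at 2.69. Atf4 itself rose by 0.25 log2. These 3 increases exceeded that of any synthetase. Of 9 elongation factors, Gfm2 (-0.25 log2) and Eef2 (-0.16) were lower and none was higher, a count near the background, and with library totals alone 8 were higher and none lower.

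Markers of other liver cell types were read in the same fit, where 25.3% of all genes were higher and 21.2% lower. Of 12 macrophage markers 11 were higher on MCD, and their summed level was 402 to 987 CPM on control and 548 to 1187 on MCD. Of 9 stellate cell markers tested 4 were higher (289 to 680 CPM on control, 335 to 881 on MCD). Of 5 erythrocyte markers 4 were lower, from 130 to 453 CPM down to 93.7 to 273. Of 8 hepatocyte markers 4 were lower, with sums of 88158 to 130898 CPM on control and 65483 to 133460 on MCD. Scaled by totals alone, 12 macrophage and 9 stellate cell markers were higher, 4 erythrocyte markers lower, and 2 hepatocyte markers higher and 2 lower. Their part in the changes of the synthetases was not tested.

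The sexes were compared through a term for a different diet effect in females. The labels give every female library replicate number 3 and every male library number 1 or 2, so sex and replicate number cannot be told apart. No member was called in liver by edgeR, against 1.77% of all genes, and 5 had an unadjusted p under 0.05, against 12.3% of genes. The smallest p belonged to Vars2 (0.34 ± 0.10 log2, female minus male effect, adjusted p = 0.0902), Iars2 (0.18 ± 0.05, 0.0977) and Mars1 (0.28 ± 0.10, 0.175). DESeq2 called Vars2 and Iars2. In SCN no member and no gene (0% of genes) was called by edgeR or, for members, by DESeq2, and 3 members had an unadjusted p under 0.05, against 5.24% of genes: Dars (0.16), Farsb (0.23) and Aars2 (-0.31).

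The second comparison followed the members over the day in liver. A 24 h rhythm was called for 8 members on control (21.1%; background 17.8%) and for 20 on MCD (52.6%; background 28.2%). The size of a rhythm is given as the fitted range from trough to peak in log2. Its median over the members was 0.20 on control and 0.35 on MCD, against 0.43 and 0.47 over all genes. Called on both diets were 6 members: Tars, Cars, Lars, Sars, Mars2 and Ears2, where 11.2% of all genes were. The count on control was 5 without control CT04 2 and 4 without control CT16 3, against 14.5% and 14.9% of genes, and the count on MCD was 13 with library totals alone, against 23.7% of genes.

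Tars had the widest rhythm on both diets. On control its group means were 225.5 ± 23.2 CPM at CT0, 218.7 ± 28.3 at CT4, 116.6 ± 17.1 at CT8, 115.1 ± 16.7 at CT12, 208.9 ± 16.2 at CT16 and 257.9 ± 57.0 at CT20 (SD, n = 3 each). The lowest library at CT16, CT20, CT0 and CT4 lay above the highest at CT8 and CT12. The range was 1.21 log2 with a peak at 22.0 h on control (edgeR adjusted p = 1e-06) and 1.13 log2 with a peak at 21.5 h on MCD (1.77e-06). On MCD the group means ran from 86.0 ± 9.9 CPM at CT12 to 174.4 ± 7.0 at CT20.

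On control the other called members had ranges of 0.30 to 0.78 log2, with peaks at 2.7 h for Cars, 5.8 h for Lars, 5.3 h for Sars, 12.4 h for Tarsl2, 15.6 h for Mars2, 18.2 h for Ears2 and 22.4 h for Cars2. Without single libraries Lars, Sars, Mars2, Ears2 and Tarsl2 lost the call in at least 1 fit. Yars, Aars and Eprs, not called on control, were rhythmic on MCD, with ranges of 0.88 (peak 18.7 h), 0.69 (19.0 h) and 0.48 log2 (23.5 h). Of the 8 enzymes of the complex 7 were called on MCD, all but Rars (28.2% of all genes), and 1, Lars, on control (17.8%). Their peaks on MCD lay at 5.0 to 7.0 h for Dars, Kars and Qars and at 18.3 to 23.5 h for Iars, Mars1, Lars and Eprs. Differences in peak time between genes were not tested. Gars was called on neither diet, with ranges of 0.12 and 0.15 log2. Mars1 had a range of 0.12 log2 on control (adjusted p = 0.698) and 0.43 on MCD (0.00906, peak 18.8 h). Iars lost its MCD call in 23 of 36 fits that left out 1 library, and Mars2 and Aars2 each in 2.

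**Figure D4:**
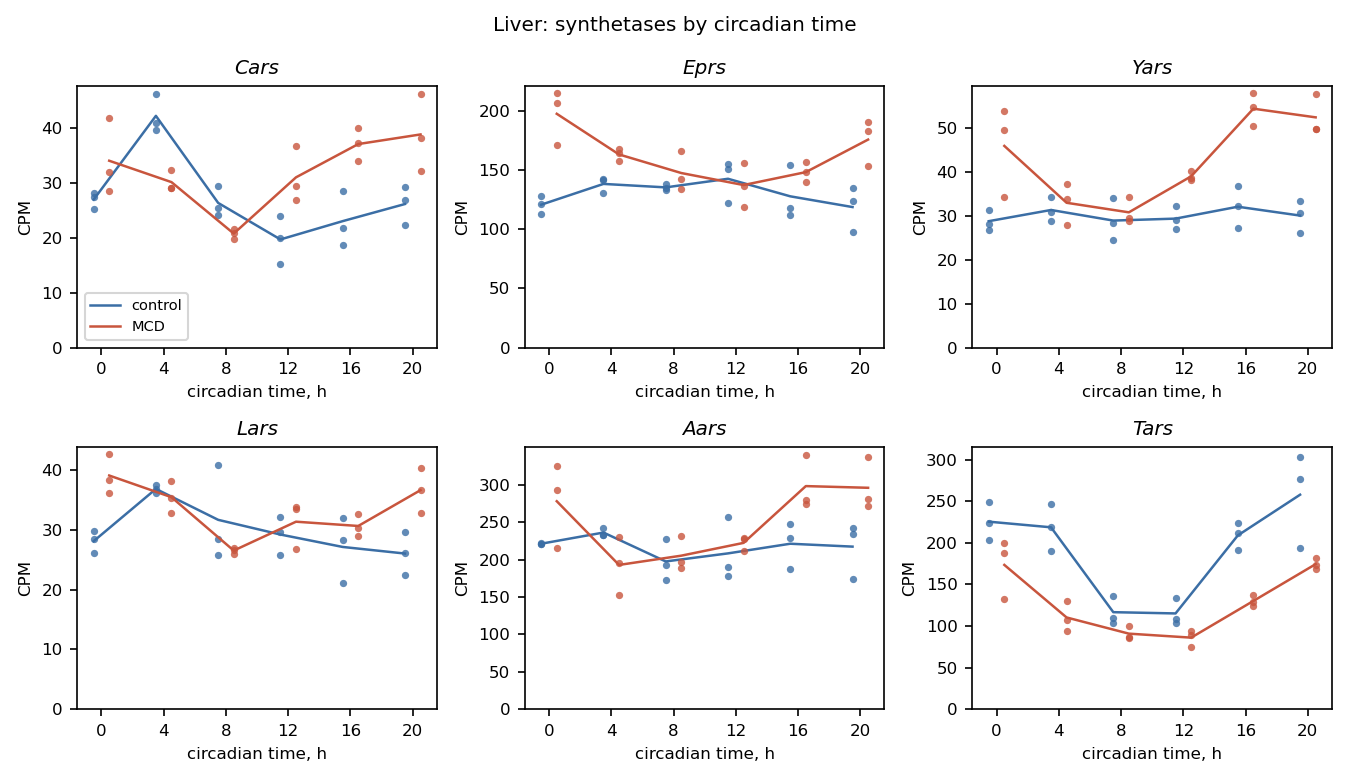
Liver CPM of 6 synthetases by circadian time, control in blue and MCD in red; points are libraries and lines join the means of 3. Cars peaks at CT4 on control and at CT16 to CT20 on MCD, Yars and Aars rise late in the day on MCD, and the means of Tars are lower on MCD than on control at each time.

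A call on 1 diet alone does not show a difference, so the difference in rhythm was tested. It was called for 4 members, Cars, Eprs, Yars and Lars, against 4.87% of all genes, and 15 members had an unadjusted p under 0.05 against 19.9% of genes. DESeq2 called 10 members, against 9.96% of genes, and edgeR called 7 without MCD CT04 1, against 5.28%. Cars moved its peak: on control it was highest at CT4 (42.2 ± 3.4 CPM, n = 3) and lowest at CT12 (19.7 ± 4.4), and on MCD highest at CT20 (38.8 ± 7.0) and lowest at CT8 (20.8 ± 1.0). The range of the difference was 1.24 log2 (edgeR adjusted p = 0.00208). Lars likewise peaked at 5.8 h on control and 22.7 h on MCD (0.71 log2, adjusted p = 0.0154), a call lost with library totals alone. Yars stayed between 28.8 and 32.1 CPM in the group means of control and ran from 30.8 ± 3.0 at CT8 to 54.4 ± 3.7 at CT16 on MCD (0.84 log2, adjusted p = 0.0113). Eprs ran from 118.6 to 142.5 CPM on control and from 137.2 ± 18.4 at CT12 to 197.4 ± 23.3 at CT0 on MCD (0.71 log2, adjusted p = 0.00441).

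No synthetase was called for diet in SCN. For the mean over the 6 times edgeR called none of the 38 members, against 0.0635% of all genes, and DESeq2 called none. An unadjusted p under 0.05 was reached by 2 members, Farsa (-0.13 ± 0.06 log2) and Aars2 (-0.17 ± 0.07), against 4.73% of genes, and Hars came next (-0.06 ± 0.04). The median size of the difference was 0.03 log2 over members and 0.05 over all genes. The 95% interval of the difference was -0.12 to 0.07 log2 for Gars, -0.11 to 0.03 for Sars, -0.06 to 0.15 for Tars and -0.20 to 0.07 for Mars1, so for Gars, Sars and Tars it held none of the liver changes. Mars2 had an interval of -0.09 to 0.25 and Kars of -0.09 to 0.06. At single times edgeR and DESeq2 called no member, against 0.00635% of genes at CT00, CT16 and CT20, 0.0444% at CT04 and 0% at CT08 and CT12 by edgeR. An unadjusted p under 0.05 was reached by 1 member at CT00, 3 at CT04, 2 at CT20 and 0 at the other times. The same was reached by 4.75%, 5.45% and 6.45% of genes at CT00, CT04 and CT20, and by 1.79% to 2.08% at the others. The lists of pathway genes and partners held no called gene in SCN. The SCN neuron markers summed to 2129 to 3695 CPM on control and 2240 to 4704 on MCD.

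The diet effect itself differed between liver and SCN for 23 members, against 34.7% of all genes, with 13 higher in liver and 10 lower (background 18.9% and 15.8%). Under totals alone 22 were higher and 6 lower (35.2% and 7.19% of genes). Sars differed by 0.71 ± 0.07 log2 (adjusted p = 3.22e-11), Gars by 0.61 ± 0.07 (5.87e-09) and Tars by -0.62 ± 0.08 (5.54e-08). Mars1 (-0.02 ± 0.09) and Kars (0.00 ± 0.05) did not pass the test.

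SCN synthetases were rhythmic for 8 members on control (21.1%; background 15.1%) and 6 on MCD (15.8%; background 16.1%), and 5 were called on both diets (9.87% of all genes): Tarsl2, Tars, Cars2, Lars2 and Sars. The control count was 5 without control CT12 1, against 11.4% of genes. The difference in rhythm was called for no member by edgeR, against 0.0127% of genes, and 1 member, Iars, had an unadjusted p under 0.05 against 3.78% of genes.

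Both cytosolic threonyl-tRNA synthetases peaked together in SCN. Tarsl2 had group means of 61.5 ± 9.1 CPM at CT0, 45.0 ± 3.5 at CT4, 40.2 ± 5.2 at CT8, 49.0 ± 2.9 at CT12, 82.6 ± 15.3 at CT16 and 96.1 ± 15.9 at CT20 on control (SD, n = 3 each). All libraries of CT16 and CT20 lay above those of the other times. The range was 1.28 log2 with a peak at 19.0 h on control (edgeR adjusted p = 2.48e-09) and 1.20 log2 at 18.7 h on MCD. Tarsl2 overlaps Tm2d3 on the same strand. Tars had a range of 0.69 log2 with a peak at 18.9 h on control (adjusted p = 0.000147) and 0.45 log2 at 18.6 h on MCD (0.0128).

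Sars ran in the other phase, with group means of 150.3 to 154.0 CPM at CT4 to CT12 and 119.8 to 125.3 at CT16 and CT20 on control, a range of 0.39 log2 and a peak at 6.9 h (adjusted p = 0.00117). On MCD its range was 0.25 log2 (peak 5.7 h, adjusted p = 0.0431), a call lost in 16 of 36 fits without 1 library. Cars2 for mitochondrial cysteine had a range of 0.67 log2 on control (peak 20.2 h) and 1.01 on MCD (19.2 h), the former lost in 6 such fits. Lars2 had a range of 1.27 log2 on control (peak 23.5 h, adjusted p = 0.00987) and 1.14 on MCD (22.7 h; lost without MCD CT00 2 or MCD CT12 1). Its level ran from 377 to 1680 CPM on control and from 419 to 2106 on MCD. Its bins 40 and 41 held 25.1% and 71.3% of its counts in SCN. Without them the range was 0.19 log2 on control (adjusted p = 0.714) and 0.37 on MCD (0.289), neither called, and the median level was 15.5 CPM in SCN and 16.1 in liver. Nars2, Aars2 and Qars were called on control alone and Tars2 on MCD alone. Sars, Tars, Tarsl2 and Cars2 were rhythmic on control in both tissues, with peaks in liver at 5.3, 22.0, 12.4 and 22.4 h. The share of all genes rhythmic in both tissues was not computed. It was 17.8% in liver and 15.1% in SCN taken alone. The liver calls of Sars and Tarsl2 were not kept in every fit that left out 1 library.

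**Figure D5:**
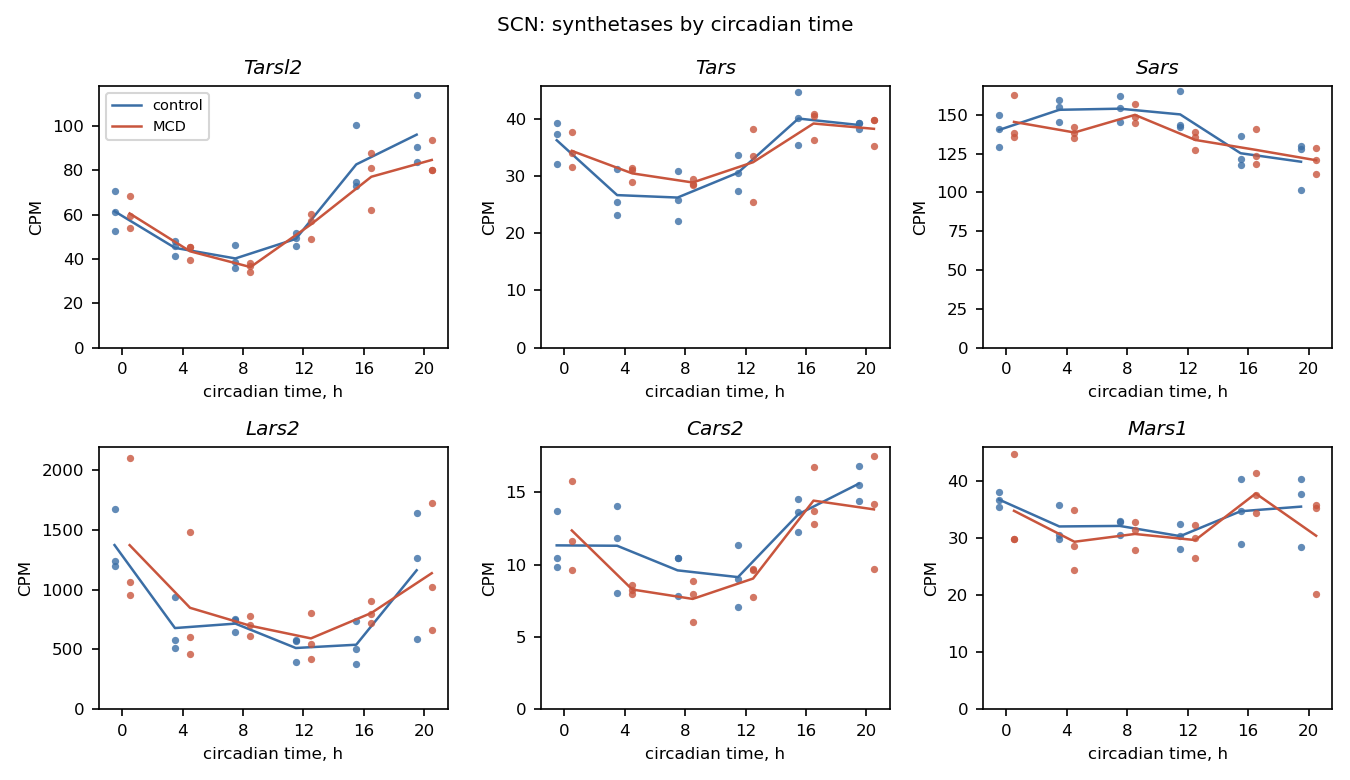
SCN CPM of 6 synthetases by circadian time, control in blue and MCD in red; points are libraries and lines join the means of 3. Tarsl2 and Tars are highest at CT16 to CT20 on both diets, and Sars is highest at CT4 to CT12 on control and at CT8 on MCD. The libraries of the diets overlap at each time for these genes, except for Sars at CT4 and CT12, where control is higher.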

How the data were processed

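The authors deposited whole-number gene counts, in a table for each tissue, and exon-bin counts, in a file for each library. The submitters' processing notes name build GRCm39, Trimmomatic, HISAT2, StringTie and DESeq2, without versions; the strand setting of counting is not given in the sources used here. Genes were tested with edgeR 4.0.16 (quasi-likelihood, TMM, minimum count 10) in R 4.3.3. Each tissue had 1 model of 12 groups and sex over its 36 libraries. DESeq2 1.42.0 and limma voom 3.58.1 were alternatives. A pair of control CT8 columns in each gene table carries no number and is called a and b. The exon counts of liver control CT00 1 and 2 are truncated and were not used. Positions and exon lengths are from GENCODE M21 (GRCm38), matched by gene ID (22552 of 22823 liver genes, all 38 members). Members and lists were chosen with earlier results of these data known. Named were members with an adjusted p under 0.05 (and 1 sign at 6 of 6 times for the average diet effect), up to 25 per comparison, otherwise the 3 smallest p, and Mars1, Mars2, Gars and Kars. Other members called for the average liver diet effect were named after their values were seen. Replicates of a group differed beyond sampling noise (chi-square per gene at least 24.1). No label says that they came from separate mice, so p-values measure the spread between libraries. Models were tested on simulated data. Same-numbered libraries of the 2 diets had correlations of 0.047 to 0.497 in liver and -0.057 to 0.330 in SCN. Sex was not removed first and number 3 is always female, so these values cannot show whether numbers pair the samples. The values of 1 member are not reported here, though counts and medians include it.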

Additional observations from a re-analysis of the deposited data

Results flagged for a closer look

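For 23 members the diet effect differed between liver and SCN by a test of the difference itself (edgeR, adjusted p under 0.05, 34.7% of all genes). As liver minus SCN in log2, the difference was positive for Sars (0.71), Gars (0.61), Pars2 (0.47), Yars (0.44), Aars2 (0.36), Vars (0.34), Iars (0.33), Mars2 (0.32), Eprs (0.28), Cars (0.26), Hars (0.235), Farsa (0.234) and Nars (0.18). It was negative for Lars2 (-0.77), Tars (-0.62), Nars2 (-0.59), Fars2 (-0.57), Rars2 (-0.47), Qars (-0.33), Vars2 (-0.30), Hars2 (-0.25), Dars (-0.24) and Iars2 (-0.16). These values count every exon bin. In liver alone the diet effect was -0.10 for Lars2 without its 2 dominant bins, not called, and -0.30 for Fars2 without its dominant bin, still called. Farsa is in this set although it was not called in liver or SCN alone, with a liver difference of 0.10 and an SCN difference of -0.13. With library totals alone Dars, Hars2, Iars2 and Vars2 lost this call.

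The liver rhythm differed between the diets for Cars (range of the difference 1.24 log2), Yars (0.84), Lars (0.71) and Eprs (0.71), again by a test of the difference itself.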

How the results depend on the processing

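Of the member counts, the average diet effect kept 28 to 30 called members without any 1 library, 16 to 17 higher and 12 to 13 lower. It moved to 17 within the high mt-Nd6 libraries, with 10 and 8 higher within the low and high ones. Library totals alone gave 27 higher and 5 lower. They also gave 13 members rhythmic on MCD in liver, 18 called at CT12 and 16 at CT16, against 23.7%, 32% and 20.6% of genes. DESeq2 called 10 members for the difference in rhythm, 2 for the sex difference, 12 at CT12 and 15 at CT16, against 9.96%, 3.64%, 19.7% and 17.1% of genes. Without control CT08 a 4 were called at CT08. Leaving out 1 library gave 4 to 9 members rhythmic on control and 18 to 23 on MCD in liver, 5 to 10 on control in SCN, 4 to 7 for the difference in rhythm and 0 to 2 for the sex difference. It gave 7 to 16 called at CT00, 6 to 17 at CT04, 0 to 4 at CT08, 2 to 10 at CT12, 7 to 11 at CT16 and 7 to 15 at CT20, and 0 to 2 for exon usage.

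A replicate block in place of sex gave 5 members rhythmic on control in liver and 4 in SCN, against 13% and 7.92% of genes, and 29 called for the average diet effect. Aars lost its call there (adjusted p = 0.12), and Mars2 turned to 0.0455 log2 in the sex difference. Of the same-number correlations 13 of 15 in liver and 6 of 15 in SCN were over 0.1. Sex was not removed from them, so they cannot show whether numbers pair the samples.

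Values that changed sign were mostly small. With library totals alone Dars stood at 0.036, Hars2 at 0.0206, Iars2 at 0.0739, Tarsl2 at 0.12, Kars at 0.25 and Mars1 at 0.17 for diet, Hars2 at 0.0117 and Tars2 at 0.0265 at CT04, and Hars2 at 0.0794 and Tarsl2 at 0.028 at CT12. Between the tissues totals alone gave 0.13 for the diet effect of Mars1, and levels of -0.0992 for Dars, -0.0986 for Farsa, -0.69 for Gars, -0.46 for Kars and -0.27 for Nars. Mars1 was at 0.00685 within the low mt-Nd6 libraries, and bin 34 of Fars2 at 0.16 once the kind of library was modelled. In the liver sex difference Mars2 was at 0.00984 by DESeq2 and 0.000898 with the kind of library modelled. Without 1 library each, Kars ran from -0.0266 to 0.00337 for diet, and in the sex difference Kars from -0.0583 to 0.0255 and Mars2 from -0.0858 to 0.088 in liver and Mars1 from -0.193 to 0.0876 in SCN. The causes were not tested.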
